A study of Mus musculus with 16 samples.

Results

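The solute carrier (SLC) transporter genes were described across 8 groups of sorted mouse thymus cells. Members were the probe sets whose single gene symbol in the platform's annotation begins with Slc and a digit, leaving out Slc4a1 and Slc38a4, with the probe set of highest mean signal standing for each gene. This gave 149 genes of 8251 genes with a single symbol on the array, measured by 183 probe sets. Of these, 125 genes passed the filter on low values and were tested, and the other 24 had signals between 0.2 and 20.4 on all 16 arrays. The 149 were placed in 12 classes by transport substrate. One of these classes holds 3 genes named after solute carriers that are not transporters, such as the scaffold gene Slc9a3r1.

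The study profiled thymic cells to describe promiscuous gene expression, the transcription of tissue-restricted genes in thymic epithelium, on Affymetrix oligonucleotide arrays. Each group had 2 arrays of total RNA. Medullary thymic epithelial cells (mTEC) sorted for high or low surface CD80 (CD80hi and CD80lo) came from wild-type mice and from mice labelled as knockouts of Aire, the gene of the autoimmune regulator. The other groups were wild type: mTEC that were not split by CD80, epithelial cells of the cortex (cTEC), dendritic cells (tDC) and macrophages (tMPh) of the thymus. The labels used here give no strain, age, sex or number of animals, do not say whether animals were pooled, and do not describe the Aire allele. Nothing in them says that the 2 arrays of a group came from separate animals, so p-values measure only the spread between these arrays, which may be technical.

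Solute carriers move ions, sugars, amino acids, nucleosides, metals, vitamins and organic anions across the plasma membrane and the membranes of organelles. Some, such as the mitochondrial carriers, serve functions that nearly every cell has. Others are known for a few tissues: Slc12a3 is the thiazide-sensitive sodium-chloride cotransporter of the renal distal tubule, Slc5a1 the sodium-glucose cotransporter of the intestinal brush border, and Slc6a4 the serotonin transporter. Aire is a transcriptional regulator in CD80hi mTEC that is known for switching on many tissue-restricted genes there.

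The promoters of 5 members on which the comparisons below turn are shown first. Slc12a3, Slc5a1 and Slc6a13 were lower in labelled knockout than in wild-type CD80hi mTEC, Slc6a4 was higher in CD80hi than CD80lo mTEC of both genotypes, and Slc11a1 was higher in macrophages than in dendritic cells. Each window is 300 bases of RefSeq sequence in build GRCm38.p6, from 250 bases before the gene's start to 50 after it, 5′ to 3′ on the gene's strand, which is + for all 5. The windows lie at chr8:94328958-94329257, chr5:33103969-33104268, chr6:121300038-121300337, chr11:76998347-76998646 and chr1:74374953-74375252. RefSeq lists 3 starts for Slc6a13, of which the most upstream was used. Capitals mark matches, on either strand, to 4 motifs. The TATA box, bound by the general transcription machinery, was searched as TATAAA. The CCAAT box was searched by the letters of its name. The GC box, bound by factors of the Sp family, was searched as GGGCGG. The core of sites for the myeloid factor PU.1 was searched as GAGGAA. A match on the opposite strand appears as its reverse complement, and no 2 searched motifs contain each other.
Slc12a3: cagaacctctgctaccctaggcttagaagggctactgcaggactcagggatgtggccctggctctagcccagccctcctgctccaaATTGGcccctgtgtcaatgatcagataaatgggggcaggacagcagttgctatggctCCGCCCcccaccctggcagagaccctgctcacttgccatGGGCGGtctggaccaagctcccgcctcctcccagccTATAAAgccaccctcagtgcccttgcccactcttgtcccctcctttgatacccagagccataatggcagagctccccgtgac
Slc5a1: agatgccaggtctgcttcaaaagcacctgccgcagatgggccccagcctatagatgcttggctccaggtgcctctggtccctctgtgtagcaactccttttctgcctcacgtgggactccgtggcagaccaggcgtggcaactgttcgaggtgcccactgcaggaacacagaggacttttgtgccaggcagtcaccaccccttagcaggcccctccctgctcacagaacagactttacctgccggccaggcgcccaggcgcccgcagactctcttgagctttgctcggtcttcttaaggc
Slc6a13: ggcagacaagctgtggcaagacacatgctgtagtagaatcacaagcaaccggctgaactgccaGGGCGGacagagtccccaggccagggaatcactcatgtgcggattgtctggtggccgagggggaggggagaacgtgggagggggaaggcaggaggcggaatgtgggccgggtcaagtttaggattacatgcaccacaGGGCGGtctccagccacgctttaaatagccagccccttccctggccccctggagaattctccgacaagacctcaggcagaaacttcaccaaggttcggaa
Slc6a4: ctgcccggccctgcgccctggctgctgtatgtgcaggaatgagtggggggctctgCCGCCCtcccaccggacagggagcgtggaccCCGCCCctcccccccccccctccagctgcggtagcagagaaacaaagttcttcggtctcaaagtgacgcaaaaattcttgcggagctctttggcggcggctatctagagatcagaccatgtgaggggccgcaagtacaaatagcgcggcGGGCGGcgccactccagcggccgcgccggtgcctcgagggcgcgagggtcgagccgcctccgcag
Slc11a1: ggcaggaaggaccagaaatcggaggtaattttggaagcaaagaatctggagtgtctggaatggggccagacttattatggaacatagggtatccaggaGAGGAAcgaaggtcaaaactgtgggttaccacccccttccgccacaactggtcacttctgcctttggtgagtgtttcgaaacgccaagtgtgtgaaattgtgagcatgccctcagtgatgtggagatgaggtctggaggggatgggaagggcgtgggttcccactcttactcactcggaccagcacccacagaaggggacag
Slc12a3 had a TATA box at -32, a GC box at -68 and, on the opposite strand, a GC box at -107 and a CCAAT box at -164, counted from the start. Slc6a13 had GC boxes at -187 and -50. Slc6a4 had a GC box at -15 and, on the opposite strand, at -195 and -164. Slc11a1 had the PU.1 core at -152, and Slc5a1 had none of the 4 motifs in this window. Among 32851 windows of 300 bases in the table, the TATA box was in 13.6%, the CCAAT box in 37.4%, the GC box in 35.7% and the PU.1 core in 28.3%, both strands counted. Promoters were listed for 123 of the 149 members. The number of CpG dinucleotides in the window had a median of 16 in the 123 members and of 7 in 27025 genes of the table. It was 4 in Slc12a3, 10 in Slc5a1, 11 in Slc6a13, 28 in Slc6a4 and 7 in Slc11a1. Of the 12 members called higher in wild-type CD80hi than CD80lo mTEC, 11 had a listed promoter, with a median of 7 CpG and a range from 1 to 28. All 6 members called lower had one, with a median of 20.5 and a range from 16 to 29. These are descriptions of letters in windows, not of factor binding.

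The arrays had been scaled by the submitters to a common trimmed mean of about 100.1. Tested members had a median mean signal of 58.2, against 82.6 for all tested genes. Summed over members, signal ran from 12267 to 14906 on the tDC arrays, from 19423 to 22362 on the tMPh arrays and from 16246 to 20035 on the epithelial arrays. The Aire probe set read 1589 and 1385 on the labelled knockout CD80hi arrays and 1829 and 1704 on the wild-type CD80hi arrays. Where its probes lie relative to the deleted part is not given in the sources used here, so it does not check the genotype labels. The 3′ control probe set for 18S ribosomal RNA read 562 and 48.2 on knockout CD80hi arrays 1 and 2. It read 1893 and 287 on knockout CD80lo arrays 1 and 2, so array 1 was above array 2 in both groups. On the 5′ control set the knockout CD80hi arrays read 120.8 and 34.7, against 178.8 and 119.6 in wild-type CD80hi. There, array 1 of knockout CD80hi lay within the wild-type values. Summed macrophage markers were highest in tMPh, dendritic cell markers in tDC and cortical epithelial markers in cTEC. Krt14, a basal keratin, was below 4.8 on both arrays of the wild-type and knockout CD80lo, knockout CD80hi and cTEC groups, and Itgam and Marco, macrophage genes, were below it on both tMPh arrays.

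In wild-type mTEC, the CD80hi stage had higher signal for genes such as the bile acid exporter subunit Slc51a, the serotonin transporter Slc6a4 and the sodium-glucose cotransporter Slc5a1, and lower signal for the nucleoside transporter Slc29a1 and the alanine-serine transporter Slc1a4. At an adjusted p under 0.05 (limma with Benjamini-Hochberg adjustment over all 9319 probe sets tested), 18 of 125 members differed, 12 higher and 6 lower in CD80hi. Among all probe sets tested, 12.7% were called, 7.98% higher and 4.74% lower, so the members' shares were near the background. The class of neurotransmitter, creatine and osmolyte transporters had 4 of 11 tested genes higher and none lower, with a median log2 difference of 1.15. The median over all tested probe sets was -0.04. Of the 4 higher genes, Slc6a3 passed the low-value filter only through the wild-type CD80hi arrays, so its call adds no support. None of 19 mitochondrial carriers was called, and their median was 0.15.

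Slc12a3, the renal sodium-chloride cotransporter, read 70.4 and 71.6 in wild-type CD80hi and 14 and 11.6 in CD80lo mTEC. The CD80hi arrays were close to each other and far above the CD80lo arrays. The log2 difference was 2.11 ± 0.42 (SE; adjusted p = 0.00352), on a scale to which a constant of 4.8 was added before log2, so that differences of low signals are understated. Slc5a1, the intestinal sodium-glucose cotransporter, read 41.2 and 29.5 in CD80hi against 6.9 and 1.1 in CD80lo, a difference of 2.26 ± 0.40 (adjusted p = 0.00157). Slc51a, the alpha subunit of the bile acid exporter of ileum, read 88.6 and 77.1 against 3.2 and 14.9, a difference of 2.80 ± 0.48 (adjusted p = 0.00125). For neither gene did the groups overlap, and the CD80lo arrays lay near or under the constant for Slc5a1.

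The 4 called genes of the neurotransmitter class were Slc6a4, Slc6a13, Slc6a20b and Slc6a3. Slc6a4, the serotonin transporter, read 532.3 and 485.2 in CD80hi against 92.5 and 61.7 in CD80lo, a log2 difference of 2.67 ± 0.49 (adjusted p = 0.00215). Slc6a13, a transporter of GABA and taurine known from liver, kidney and meninges, read 132.3 and 145.9 against 43.7 and 36.1, a difference of 1.69 ± 0.32 (adjusted p = 0.00231). Slc6a20b, a relative of the proline transporter, read 80.7 and 80.6 against 27.4 and 19, a difference of 1.63 ± 0.36. Slc6a3, the dopamine transporter of dopaminergic neurons, read 20.7 and 26.5 against 5.2 and 4.9, a difference of 1.52 ± 0.37 (adjusted p = 0.0143). In all 4, the lower CD80hi array was above the higher CD80lo array. Groups without overlap, in either direction, were found for 62.9% of all probe sets tested and 72% of members in this comparison.

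The other 5 higher members came from several classes. Slc3a1, the heavy chain of the renal cystine transporter, read 24.6 and 25.2 in CD80hi against 3.3 and 3.0 in CD80lo, and Slc7a3, a cationic amino acid transporter, read 47.2 and 84.9 against 12.7 and 18.9. Their log2 differences were 1.90 ± 0.46 and 1.75 ± 0.48. Slc11a1, the metal ion transporter of the phagosome membrane of macrophages, read 32.2 and 48 against 7.2 and 9.3, a difference of 1.76 ± 0.34 (adjusted p = 0.00282). Slc9a3r1, which encodes the apical scaffold NHERF, is not itself a transporter. It read 1102 and 917 against 414 and 326, a difference of 1.44 ± 0.27 (adjusted p = 0.00272). Slc22a18, an imprinted relative of organic cation transporters, differed by 1.20 ± 0.34.

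Among the 6 lower members, Slc29a1, the equilibrative nucleoside transporter of the plasma membrane, read 110.1 and 127.5 in wild-type CD80hi against 808.6 and 681.6 in CD80lo. This was a log2 difference of -2.60 ± 0.33 (adjusted p = 0.000123). Slc1a4, which exchanges alanine, serine and cysteine, read 93.9 and 126.0 against 396.7 and 378.2, a difference of -1.79 ± 0.33 (adjusted p = 0.00214). The potassium-chloride cotransporters Slc12a4 and Slc12a7 differed by -1.91 ± 0.49 and -1.28 ± 0.33. Slc35d1, which carries nucleotide sugars into the endoplasmic reticulum, differed by -1.83 ± 0.40, and Slc27a3, an acyl-CoA synthetase, by -3.13 ± 0.82 with CD80hi signals of 4.2 and 8.3 against 93.0 and 87.4. Slc29a1 had a dimmer probe set, which differed by 0.07 here, and so did Slc6a4, whose dimmer set differed by 0.25. In both genes the call rests on the probe set of highest mean signal.

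Marker genes of other cell types moved along the same axis. Of fibroblast markers, 4 of 13 tested were lower in wild-type CD80hi, with summed signals of 1108 to 1127 against 3076 to 3254 in CD80lo. Of endothelial markers, 4 of 11 were lower, with summed signals of 259 to 271 against 667 to 1166, and Selp and Cdh5 were below 4.8 on both CD80hi arrays. In the other direction, 4 of 16 macrophage, 2 of 12 dendritic cell and 3 of 10 erythroid markers and 1 of 8 B cell markers were higher in CD80hi, with summed B cell signals of 417 to 493 against 188 to 219. The summed macrophage signal nevertheless lay lower in CD80hi, at 3636 to 4031 against 4713 to 5936. The macrophage markers Adgre1, Mertk, Fcgr3, Marco and Itgam were below 4.8 on both CD80lo arrays. Their part in the members' differences was not tested, and in bulk samples fewer cells of a type and less RNA per cell cannot be told apart. Leaving out single arrays moved the count of called members from 18 to between 8 and 12. A fit of these groups alone called 37. Slc12a3, Slc5a1, Slc6a13, Slc6a4, Slc51a, Slc9a3r1, Slc29a1 and Slc1a4 were called in every fit that tested them. Slc5a1 was tested in 12 of the 13 alternatives.

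**Figure D1:**
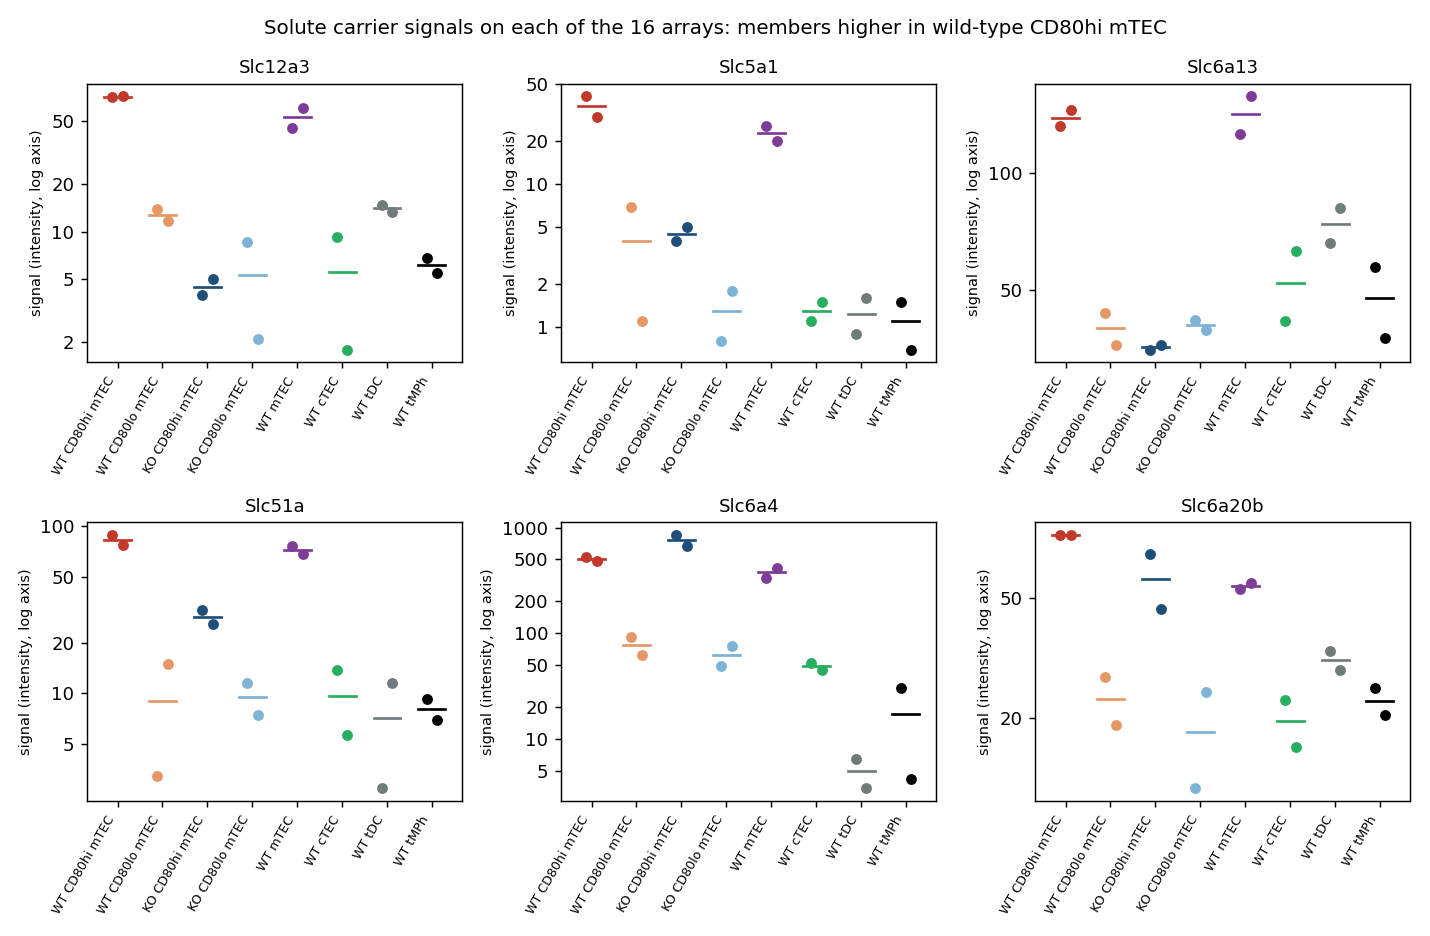
Signal (intensity, logarithmic axis) of 6 members on each of the 16 arrays, in the 8 groups of 2 arrays; points are arrays and bars are group means. Slc12a3, Slc5a1 and Slc6a13 were high in wild-type CD80hi and unfractionated mTEC and low in labelled knockout CD80hi mTEC, while Slc6a4 read 663.3 and 850.8 in labelled knockout CD80hi mTEC.

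Between genotypes, the comparison of CD80hi mTEC asks which transporters differ where Aire is labelled as deleted. Of 125 members, 3 were lower in the labelled knockout (Slc12a3, Slc5a1 and Slc6a13) and none was higher; before adjustment, p was under 0.05 for 10 lower and 4 higher members, together 11.2% against 11.5% of all probe sets. Among all probe sets tested, 3.05% were called, 2.88% lower and 0.172% higher, and the members' share was near this. The 3 were all among the 12 that were higher in wild-type CD80hi than CD80lo mTEC, but both comparisons use the wild-type CD80hi arrays, so neither lends support to the other.

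Slc12a3 read 4.0 and 5.0 in labelled knockout CD80hi mTEC against 70.4 and 71.6 in wild type, so the knockout signals were about as low as the constant. The log2 difference was -3.03 ± 0.42 (adjusted p = 0.00114), and it was called in every fit run. Slc5a1 also read 4.0 and 5.0, against 41.2 and 29.5, a difference of -2.10 ± 0.40 (adjusted p = 0.00823). Its call was lost with a constant of 1, without either wild-type array, and without knockout array 1. Slc6a13 read 35.1 and 36.1 against 132.3 and 145.9, a difference of -1.83 ± 0.32 (adjusted p = 0.00477), which lost its call when either wild-type array was left out. For all 3 genes the groups were far apart. Groups did not overlap for 40.6% of all probe sets tested and 44% of members. The labelled knockout CD80hi signals lay below both wild-type CD80lo signals for Slc12a3, at or below them for Slc6a13, and between them for Slc5a1.

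Slc51a and Slc6a4, both higher at the CD80hi stage in wild type, did not pass the test between genotypes. Slc51a read 31.6 and 26 in labelled knockout CD80hi mTEC against 88.6 and 77.1, a log2 difference of -1.39 (adjusted p = 0.198). Slc6a4 read 850.8 and 663.3 against 532.3 and 485.2, a difference of 0.56 (adjusted p = 0.832), with both knockout arrays above both wild-type arrays. Neither did Slc6a2 and Slc2a5, which were not called between wild-type stages. Slc6a2, the noradrenaline transporter, read 9.4 and 19.6 against 31.5 and 63.5, a difference of -1.42 (adjusted p = 0.0653). Slc2a5, the fructose transporter, lay in the other direction with 14.7 and 24.7 against 3.1 and 2.8, a difference of 1.63 (adjusted p = 0.100). Of macrophage markers 2 of 16 and of erythroid markers 2 of 10 were also lower in labelled knockout CD80hi mTEC, with summed macrophage signals of 2865 to 3586 against 3636 to 4031 and summed erythroid signals of 249 to 285 against 444 to 464. No B cell marker of 8 was called, while their summed signal lay higher in the labelled knockout, at 773 to 960 against 417 to 493. Their part in the members' differences was not tested.

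In CD80lo mTEC, none of 125 members passed the test between genotypes with limma, against 0.322% of all probe sets tested, 0.279% higher and 0.0429% lower. Before adjustment, p was under 0.05 for 5 members, of which 4 were higher in the labelled knockout, and for 5.55% of all probe sets. Slc12a3 read 8.6 and 2.1 in labelled knockout CD80lo against 14 and 11.6 in wild type, and Slc6a13 read 41.8 and 39.4 against 43.7 and 36.1, so the Slc6a13 groups overlapped.

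The difference between stages in the labelled knockout had 16 of 125 members called, 5 higher and 11 lower in CD80hi, and 12.8% of all probe sets tested were called, 5.93% higher and 6.87% lower. Slc6a4 read 850.8 and 663.3 in knockout CD80hi against 49.3 and 75.4 in CD80lo, a log2 difference of 3.52 ± 0.49 (adjusted p = 0.000308). The CD80hi arrays were far above the CD80lo arrays, as they were in wild type. The dimmer probe set of Slc6a4 differed by 0.76 and was not called (adjusted p = 0.354). The other higher members were Slc6a20b at 1.49 ± 0.36, Slc25a51, the mitochondrial NAD carrier, at 1.38 ± 0.34, and the amino acid transporter light chains Slc7a8 at 1.37 ± 0.37 and Slc7a7 at 1.19 ± 0.34. Slc6a20b read 69.9 and 45.9 against 11.7 and 24.3, without overlap, as for 46.1% of all probe sets tested and 56% of members.

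The lower members included Slc29a1, with 181.7 and 110.3 in knockout CD80hi against 778.8 and 827.3 in CD80lo, a log2 difference of -2.46 ± 0.33 (adjusted p = 0.00021). Slc1a4 read 86.5 and 68.5 against 478.1 and 300.0, a difference of -2.23 ± 0.33 (adjusted p = 0.000457). Both were lower at the CD80hi stage in wild type as well. The call of Slc29a1 was lost when the mean over its probe sets was used (-0.80, adjusted p = 0.154). Slc12a2, the sodium-potassium-chloride cotransporter, differed by -2.66 ± 0.80, and Slc12a7 by -1.88 ± 0.33. Slc12a2 lost its call with a constant of 1 and without the filter. The zinc transporters Slc39a8 and Slc39a1 differed by -2.04 ± 0.46 and -1.66 ± 0.39. The dimmer probe set of Slc39a1 differed by -0.15 (adjusted p = 0.903). The rest included Slc66a2 at -1.99 ± 0.32, the choline transporter-like Slc44a2 at -1.54 ± 0.35 and the lipocalin receptor Slc22a17 at -1.44 ± 0.42. Last came the creatine transporter Slc6a8 at -1.42 ± 0.42 and Slc35d1 at -1.39 ± 0.40. Slc6a8 lost its call with a constant of 1, with the mean over its probe sets and in a fit of these groups alone. In this comparison 3 of 13 fibroblast and 2 of 11 endothelial markers were lower, with summed fibroblast signals of 1485 to 1585 in CD80hi against 3849 to 4324 in CD80lo. Higher were 4 of 12 dendritic cell, 2 of 10 erythroid and 1 of 8 B cell markers, with summed B cell signals of 773 to 960 against 151 to 209. Of 16 macrophage markers, 2 were higher and 2 lower, with summed signals of 2865 to 3586 against 5226 to 6339. Their part in the members' differences was not tested. Without array 1 of both knockout groups, an alternative chosen after seeing the data, 6 members were called instead of 16, and a fit of these groups alone called 7. Leaving out single arrays gave 7 to 11, with 7 without CD80hi array 2 and 9 without CD80lo array 1.

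The stage difference in wild type and that in the labelled knockout share no arrays. Across the 125 members, their log2 differences correlated with a Pearson r of 0.754 (0.683 over all 9319 probe sets), a description across genes, which are not independent. Called in both, in the same direction, were 6 members, which is 33.3% of the 18 called in wild type and 37.5% of the 16 called in the labelled knockout. Over all probe sets these shares were 53.8% and 53.5%. The 6 were Slc6a4 and Slc6a20b, both higher, and Slc29a1, Slc1a4, Slc12a7 and Slc35d1, all lower. Of the 12 members higher in wild-type CD80hi, 2 were also called in the labelled knockout, and of the 6 lower, 4 were, which is 16.7% and 66.7%. Over all probe sets these shares were 43.7% and 70.8%. Whether the members' shares differ from these was not tested.

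Whether the stage difference itself differed between genotypes was tested by an interaction term. No member passed with limma at an adjusted p under 0.05, while 12 of 125 (9.6%, against 8.32% of all probe sets) had an unadjusted p under 0.05, all with a smaller or more negative stage difference in the labelled knockout. Among all probe sets tested 1.30% were called, all in that direction. The estimates were -2.16 ± 0.59 for Slc12a3 (adjusted p = 0.114), -1.86 ± 0.45 for Slc6a13 (adjusted p = 0.0611) and -1.65 for Slc5a1 (adjusted p = 0.277). Under a larger constant, Slc12a3 was called at -1.59 (adjusted p = 0.0154) and Slc6a13 at -1.58 (adjusted p = 0.0360).

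**Figure D2:**
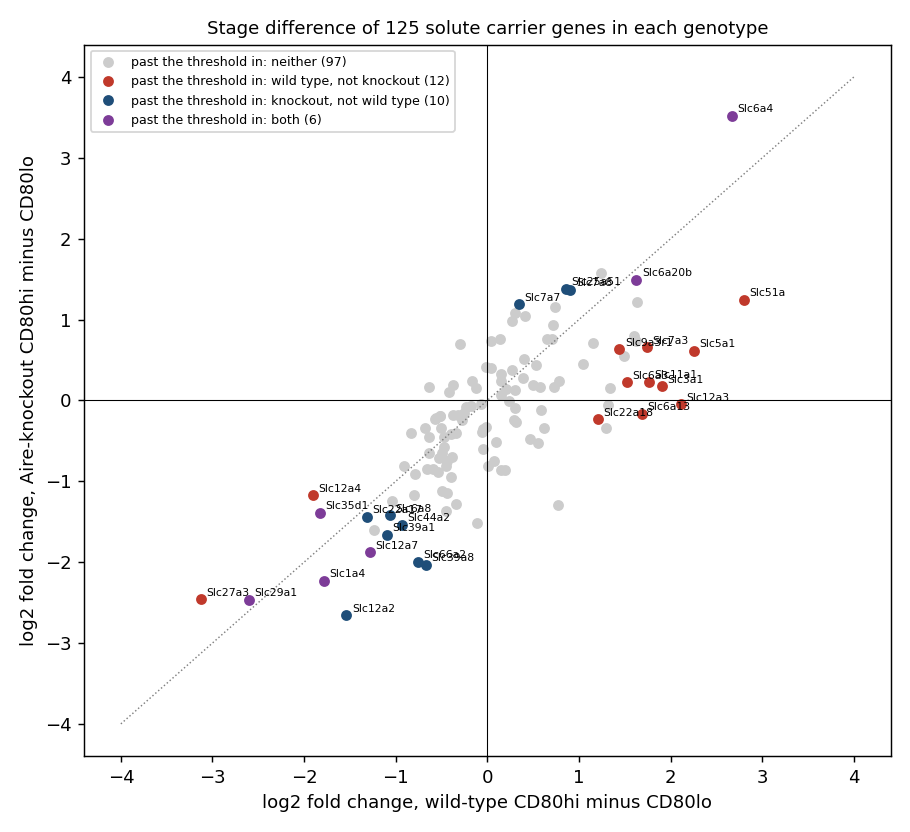
Log2 fold change between CD80hi and CD80lo mTEC of the 125 tested members in wild type (horizontal axis) and in labelled Aire knockouts (vertical axis), coloured by the comparison in which each was called; the dotted line marks equal differences. Slc6a4 lies at the upper right in both, Slc29a1 and Slc1a4 at the lower left, and Slc12a3 and Slc6a13 lie to the right near 0 on the vertical axis.

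The genes whose pattern over the 16 arrays was most like that of Slc12a3 were taken by Pearson r of log2 signal over all probe sets tested. They were Wap, a whey protein of milk (r = 0.958), 2 probe sets without a single gene symbol (r = 0.941 and 0.940), the casein gene Csn1s1 (r = 0.924) and Cyp2d26, a liver cytochrome (r = 0.922). Among members the values were 0.875 for Slc6a13, 0.872 for Slc5a1 and 0.869 for Slc34a1, the renal phosphate cotransporter, followed by 0.756 for Slc51a. The arrays fall into groups that share a cell type, so these r describe a shared pattern of groups and carry no p.

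Unfractionated mTEC, compared with cTEC, had 24 of 125 members called, 19 higher and 5 lower, where 15.4% of all probe sets were called, 11.1% higher and 4.25% lower. Quantile normalization shifted the median log2 difference over the array by -0.11, and under it 15 were higher and 7 lower, a split of 68.2% higher instead of 79.2%. Slc34a2, the sodium-phosphate cotransporter of lung alveolar cells and intestine, read 69.3 and 97.0 in mTEC against 2.0 and 0.9 in cTEC, a log2 difference of 3.80 ± 0.31 (adjusted p = 4.04e-06). Its cTEC arrays were below the constant. It was at 72.6 to 115.2 in wild-type CD80hi and CD80lo mTEC, 35.3 to 68.3 in the labelled knockouts and 3.5 to 6.0 in tDC and tMPh. It was not called between CD80 stages in either genotype.

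Several members called higher at the wild-type CD80hi stage were also called higher in mTEC than in cTEC, on other arrays. Slc6a4 read 336.8 and 418.9 in mTEC against 52.4 and 45 in cTEC, a log2 difference of 2.83 ± 0.49 (adjusted p = 0.00113). Its dimmer probe set differed by 0.70 and was not called (adjusted p = 0.404). Slc12a3 read 45.2 and 60.1 against 9.3 and 1.8, a difference of 2.56 ± 0.42 (adjusted p = 0.000675). Slc51a read 76.1 and 67.9 against 13.7 and 5.6, a difference of 2.47 ± 0.48. The mTEC arrays of each were above the cTEC arrays without overlap. In either direction, 54.3% of all probe sets tested and 60.8% of members did not overlap. Slc5a1 differed by 2.17 ± 0.40, with 25.5 and 20.2 against 1.1 and 1.5. Slc7a3 differed by 1.98 ± 0.48, Slc9a3r1 by 1.63 ± 0.27, Slc6a13 by 1.38 ± 0.32, Slc6a20b by 1.31 ± 0.36 and Slc11a1 by 1.23 ± 0.34.

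The remaining higher members came from several classes. Slc31a1, the copper importer, read 465.7 and 716.1 in mTEC against 101.9 and 137.3 in cTEC, a log2 difference of 2.24 ± 0.58 (adjusted p = 0.0164). Its dimmer probe set, with a mean signal of 139.7, differed by 0.35 and was not called (adjusted p = 0.574), so the call rests on the brighter set. Slc27a2, a very-long-chain acyl-CoA synthetase of liver and kidney, read 29.6 and 26.3 against 0.3 and 6.4, a difference of 2.11 ± 0.40. Slc44a4 and Slc44a1, of the choline transporter family, differed by 1.71 ± 0.28 and 1.04 ± 0.30, and the glutamate transporter Slc1a1 by 1.77 ± 0.49. In Slc44a1, mTEC read 536.5 and 551.5 and cTEC 271.9 and 253.5, a narrow spread in each group. Slc44a1 nevertheless lost its call in a fit of these groups alone. The light chain Slc7a7 differed by 1.43 ± 0.34, the carnitine transporter Slc22a21 by 1.42 ± 0.34, the glucose transporter Slc2a1 by 1.30 ± 0.38 and Slc34a1 by 1.24 ± 0.36.

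The 5 members lower in mTEC, and so higher in cTEC, were led by Slc12a4, the potassium-chloride cotransporter, with 89.5 and 43.8 in mTEC against 337.7 and 294.7 in cTEC, a log2 difference of -2.24 ± 0.49 (adjusted p = 0.00572). Slc29a1 read 227.7 and 305.8 against 1128 and 876.8, a difference of -1.89 ± 0.33 (adjusted p = 0.00102), and Slc1a4 read 145.7 and 171.7 against 444.4 and 526.0, a difference of -1.58 ± 0.33 (adjusted p = 0.00404). Those 3 genes were also lower in wild-type CD80hi than CD80lo mTEC. Slc35d1, also called lower at that stage, differed by -1.46 ± 0.40 and Slc44a2 by -1.18 ± 0.35. The call of Slc29a1 was lost here when the mean over its probe sets was used. Of thymocyte markers, 10 of 12 were lower in mTEC, with summed signals of 426 to 430 against 3828 to 7019 in cTEC, and Rag2 was below 4.8 on both mTEC arrays. Higher in mTEC were 4 of 12 dendritic cell markers (summed 4721 to 5063 against 1744 to 2846), 3 of 16 macrophage markers (3993 to 4006 against 3870 to 3973), 2 of 8 B cell markers (543 to 581 against 189 to 210) and 5 of 10 erythroid markers (329 to 357 against 109 to 112). So were 2 of 11 endothelial markers (344 to 388 against 113 to 201). Of 13 fibroblast markers, 3 were higher and 1 lower in mTEC (1454.2 to 1477.8 against 1705.6 to 1774.5). Their part in the members' differences was not tested. Leaving out single arrays gave 13 to 16 called members. The count was 13 without cTEC array 2 or mTEC array 2 and 14 without mTEC array 1.

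**Figure D3:**
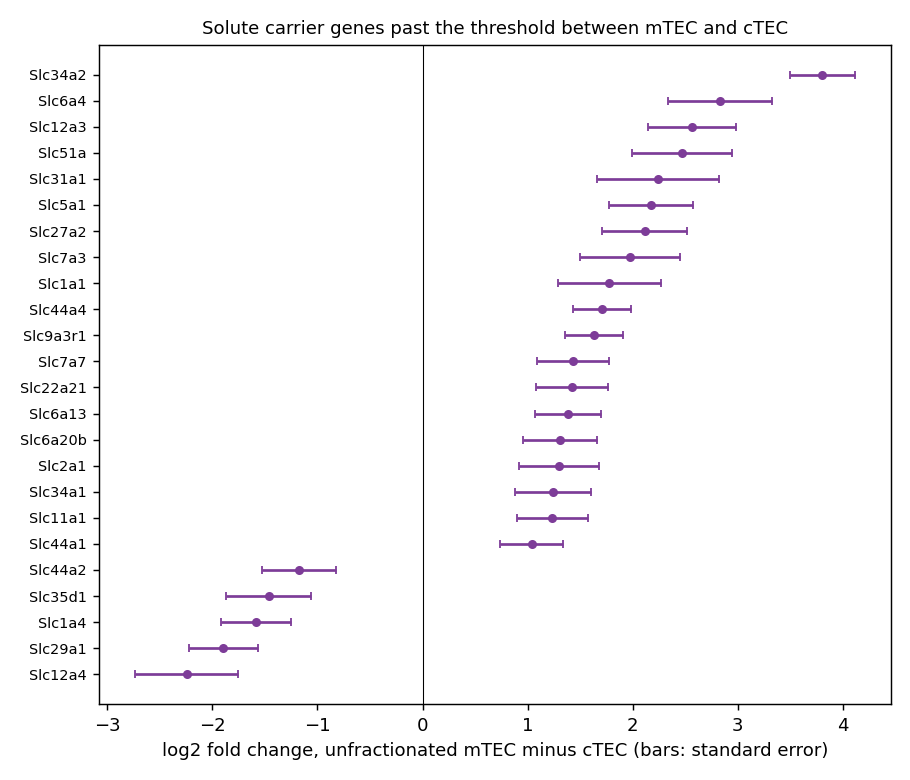
Log2 fold change (horizontal axis, points, with standard errors as bars) between unfractionated wild-type mTEC and cTEC (n = 2 arrays each) of the 24 members called in that comparison. Slc34a2 has the highest value, 3.80, and Slc12a4 the lowest, -2.24.

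Thymic epithelium (mTEC and cTEC) was then compared with myeloid cells (tDC and tMPh), 4 arrays against 4. Of 125 members, 26 were called, 17 higher and 9 lower in epithelium, against 24.4% of all probe sets, 15.8% higher and 8.64% lower. Slc6a8, the creatine transporter, read 314.7 and 280.5 in mTEC, 525.7 and 372.5 in cTEC, 3.8 and 2.6 in tDC and 84.0 and 23.8 in tMPh, a log2 difference of 4.20 ± 0.30 (adjusted p = 4.13e-07). Every epithelial array was above every myeloid array. Groups without overlap, in either direction, were found for 13.4% of all probe sets tested and 8.8% of members. Slc6a4 differed by 3.44 ± 0.35 (adjusted p = 6.56e-06), with tDC at 6.5 and 3.4 and tMPh at 30.4 and 4.2. Slc1a4 read 12.3 and 8.2 in tDC and 76.6 and 51.9 in tMPh against 145.7 to 526.0 in epithelium, a difference of 3.15 ± 0.23 (adjusted p = 5.32e-07).

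Slc2a4, the insulin-responsive glucose transporter of muscle and fat, read 29.1 to 110.0 in epithelium and 4.0 to 12.6 in myeloid cells, a log2 difference of 2.17 ± 0.33. Slc44a1, a choline transporter, differed by 1.75 ± 0.21 (adjusted p = 3.16e-05), with 52 and 54.1 in tMPh against at least 218.1 on every other array of these 4 groups. The anion exchanger Slc4a3 differed by 1.72 ± 0.35, Slc51a by 1.45 ± 0.34, Slc7a3 by 1.40 ± 0.34 and both Slc34a2 and Slc27a2 by 1.32. These 5 had overlapping groups. In cTEC, Slc34a2 read 2.0 and 0.9, Slc27a2 0.3 and 6.4, and Slc51a 13.7 and 5.6. The myeloid arrays read 3.5 to 6.0, 0.5 to 2.5 and 2.7 to 11.6 for them. Of these 4 groups, only mTEC was high for Slc34a2, Slc27a2 and Slc51a. Slc25a25, the mitochondrial ATP-magnesium carrier, differed by 1.15 ± 0.22, Slc12a4 by 1.15 ± 0.35 and Slc20a1, a phosphate importer, by 0.93 ± 0.28. Slc12a4 and Slc20a1 overlapped and Slc25a25 did not. The other 4 called higher were Slc2a1, Slc4a4, Slc5a1 and Slc44a4, all with overlapping groups. Slc4a4 passed the low-value filter only through the cTEC arrays, so its call adds no support. Slc5a1 read 1.1 and 1.5 in cTEC against 0.7 to 1.6 in myeloid cells, so of these 4 groups only mTEC was high for it.

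Among members higher in myeloid cells, Slc11a1 read 68.7 and 71.0 in tDC and 548.6 and 962.3 in tMPh against 14.5 to 42.8 in epithelium, a log2 difference of -2.93 ± 0.24 (adjusted p = 1.09e-06). Slc35c2, a Golgi transporter relative, read 95.8 to 229.4 in myeloid cells against 30.8 to 47, a difference of -1.79 ± 0.32, and Slc6a6, the taurine transporter, 274.7 to 452.1 against 107.8 to 154.1, a difference of -1.32 ± 0.19 (adjusted p = 0.000149). In these 3 genes the groups did not overlap. The dimmer probe set of Slc6a6 differed by -0.34 and was not called (adjusted p = 0.662). Slc8a1, the sodium-calcium exchanger, differed by -3.13 ± 0.55 but its groups overlapped, since mTEC array 2 read 32.9 and tDC array 1 read 31. Overlap was also found for Slc15a2, the peptide transporter (-1.71 ± 0.38), Slc7a7 (-1.18 ± 0.24), Slc7a8 (-1.01 ± 0.27), Slc10a3, of the bile acid transporter family (-0.94 ± 0.33), and Slc23a2, an ascorbate transporter (-0.82 ± 0.28). As described next, several of these were high in tMPh and not in tDC. Of them, Slc7a8 passed the low-value filter only through the tMPh arrays, so its call adds no support here. The calls of Slc10a3 and Slc23a2 were lost with a constant of 1 and without the filter. Of the marker lists, 7 of 8 cortical epithelial genes were higher and 10 of 16 macrophage and 8 of 12 dendritic cell genes were lower in epithelium. Of 8 medullary epithelial genes, 4 were higher and 1 lower. Fibroblast markers had 4 of 13 higher and thymocyte markers 3 of 12 lower.

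**Figure D4:**
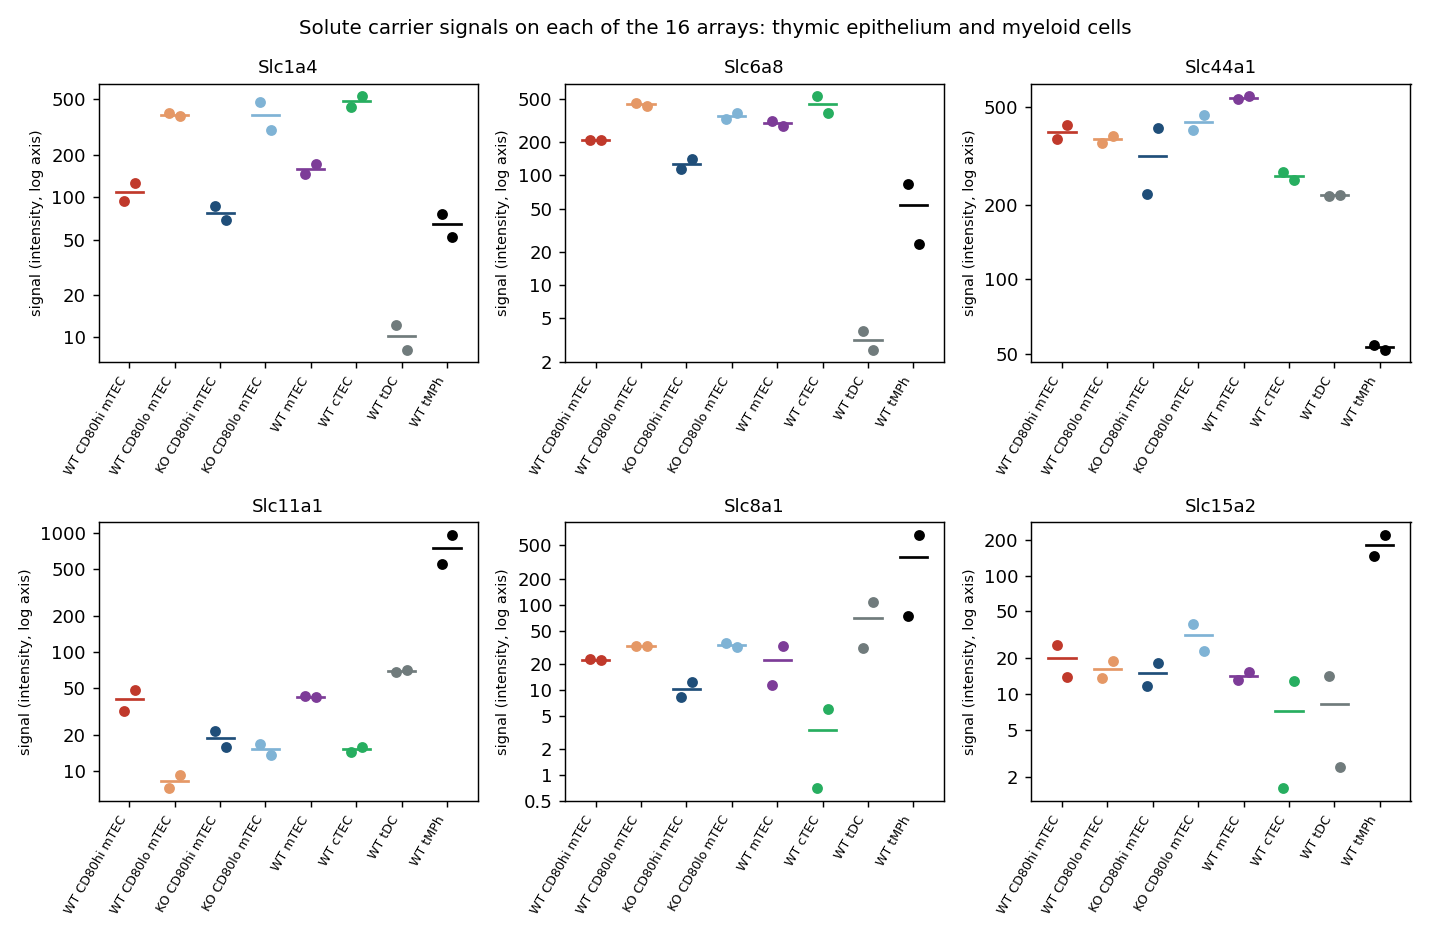
Signal (intensity, logarithmic axis) of 6 members on each of the 16 arrays in the 8 groups; points are arrays and bars are group means. Slc1a4 and Slc6a8 were lowest in tDC, Slc44a1 was lowest in tMPh, and Slc11a1, Slc8a1 and Slc15a2 were highest in tMPh.

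Dendritic cells and macrophages differed in 22 of 125 members, 18 higher in tMPh and 4 higher in tDC, against 9.25% of all probe sets called, 5.62% higher in tMPh and 3.63% higher in tDC. The 18 are 14.4% of the tested members. A fit of these groups alone called 4 (Slc11a1, Slc15a2, Slc16a7 and Slc29a1), all higher in tMPh. Macrophages had the highest group mean for 37 of 125 members, or 29.6%, against 16.8% of 6922 genes. Amino acid transporters had 5 of 16 tested genes higher in tMPh and none higher in tDC. Of the 5, Slc7a8 passed the low-value filter only through the tMPh arrays. Slc1a1 would not have passed without them, with 18.1 on mTEC array 2 as its highest signal elsewhere. The calls of both add no support. The median log2 difference, tDC minus tMPh, was -0.26 over members and -0.08 over all probe sets tested.

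Slc11a1 read 548.6 and 962.3 in tMPh against 68.7 and 71.0 in tDC, a log2 difference of -3.29 ± 0.34 for tDC minus tMPh (adjusted p = 2.72e-05). Slc7a7, the light chain that exports cationic amino acids, read 1198 and 2232 against 357.2 and 291.8, a difference of -2.32 ± 0.34 (adjusted p = 0.000547). Slc15a2, the peptide transporter, read 146.5 and 220.9 against 14.1 and 2.4, a difference of -3.99 ± 0.54 (adjusted p = 0.000249). In each the macrophage arrays were above all dendritic cell arrays. In either direction, 42.3% of all probe sets tested and 52.8% of members did not overlap. Slc29a1 read 1105 and 1721 against 205.8 and 202.1, a difference of -2.73 ± 0.33 (adjusted p = 0.000102), while its dimmer probe set differed by 0.20 (adjusted p = 0.905). Slc46a1, the proton-coupled folate transporter, read 17.1 and 34 against 0.7 and 1.0, a difference of -2.37 ± 0.47, with both tDC arrays below the constant.

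The amino acid transporters higher in tMPh were, besides Slc7a7, the glutamate transporter Slc1a1 (-2.81 ± 0.49), the arginine transporter Slc7a2 (-2.32 ± 0.59), Slc1a4 (-2.19 ± 0.33) and Slc7a8 (-1.91 ± 0.37). Chloride cotransporters were Slc12a2 (-4.09 ± 0.80) and Slc12a7 (-1.68 ± 0.33). Slc12a2 read 257.3 and 1304.5 in tMPh, so the macrophage arrays lay far apart for it. The rest were the lactate and pyruvate transporter Slc16a7 (-2.94 ± 0.44), the zinc importer Slc39a8 (-2.73 ± 0.46), Slc6a8 (-2.66 ± 0.42), Slc22a17 (-2.35 ± 0.42), the steroid sulfate transporter Slc10a6 (-1.99 ± 0.50), Slc44a2 (-1.34 ± 0.35) and the mitochondrial nucleotide carrier Slc25a36 (-0.98 ± 0.29), whose call was lost in 8 of 14 alternatives. Of the 18, tMPh had the highest mean of the 8 groups in 14, and cTEC had a mean above tMPh in Slc1a4 and Slc6a8. Slc16a7 and Slc1a1, like Slc7a8, passed the low-value filter only with the tMPh arrays.

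Higher in tDC were Slc22a21, the carnitine transporter, with 64.3 and 46.9 against 11.2 and 9.9 in tMPh, a log2 difference of 1.96 ± 0.34 (adjusted p = 0.00176), and Slc44a1, with 218.1 and 220.6 against 54.1 and 52, a difference of 1.95 ± 0.30 (adjusted p = 0.000736). Slc25a20, the carnitine-acylcarnitine carrier of mitochondria, read 452.0 and 268.1 against 132.0 and 109.3, a difference of 1.5 ± 0.37. Slc30a4, a zinc exporter, read 82.7 and 355.9 against 46.2 and 37.4, a difference of 1.94 ± 0.57 (adjusted p = 0.0488). The groups did not overlap in any of the 4, as for 42.3% of all probe sets tested. The tDC arrays lay far apart for Slc30a4, whose call was lost in 8 of 14 alternatives.

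Markers of other cells moved with this comparison. Macrophage markers were higher in tMPh in 12 of 16 genes, with summed signals of 15216 to 29202 against 4883 to 5163 in tDC, and dendritic cell markers were higher in tDC in 9 of 12. Of epithelial markers, 6 of 8 cortical genes (summed 1935 to 6292 against 369 to 883 in tDC) were higher in tMPh. So were 3 of 9 general thymic epithelial genes (474 to 2522 against 206 to 212). Medullary epithelial genes went the other way, with 2 of 8 higher in tDC and 0 higher in tMPh (summed 4647 to 4674 in tDC against 2697 to 3749 in tMPh). Foxn1 and Krt14 were below 4.8 on both tDC arrays. Cortical markers summed to 10493 to 15268 in cTEC. Also higher in tMPh were 2 of 8 B cell markers (582 to 717 against 212 to 245) and 2 of 12 thymocyte markers (2767 to 6687 against 2692 to 2735). Of erythroid markers 1 of 10 was higher in tMPh, and of endothelial markers 1 of 11 was higher in tDC. Their part in the members' differences was not tested.

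**Figure D5:**
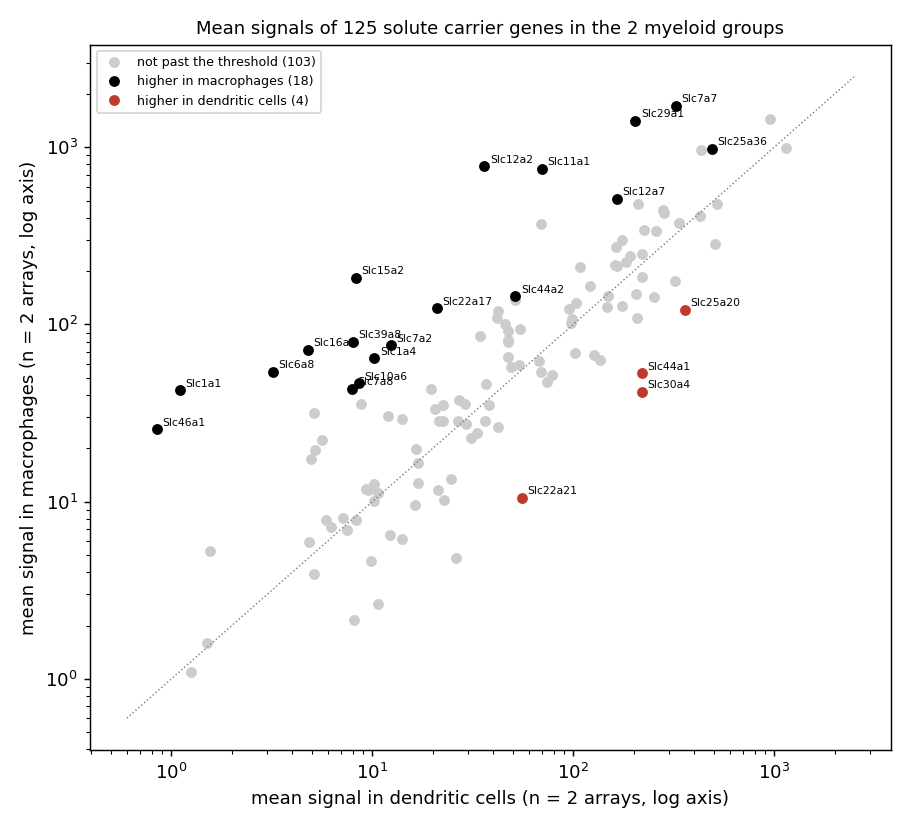
Mean signal of the 125 tested members in tDC (horizontal) and tMPh (vertical), on logarithmic axes, with the 22 called members named; the dotted line marks equal means. The 18 members higher in tMPh lie above the line, with Slc1a1, Slc46a1, Slc15a2 and Slc12a2 among those farthest from it, and the 4 higher in tDC lie below.

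Other transport genes were counted from lists of ion pumps (14 tested), aquaporins (4) and ABC transporters (20), to be read against the same shares of all probe sets. Between wild-type CD80hi and CD80lo mTEC, 2 of 14 ion pump genes were higher, against 7.98% of all probe sets, both subunits of the gastric proton pump, Atp4a (1.74 ± 0.34) and Atp4b (2.32 ± 0.54). Of 20 ABC transporters, 3 were higher, among them the retinal Abca4 (2.03) and the sulfonylurea receptor Abcc8 (1.71), and none of 4 aquaporins was called. No gene of these lists was called between genotypes in either CD80 stage with limma. In the labelled knockout, CD80hi against CD80lo, where 5.93% of all probe sets were higher and 6.87% lower, 1 pump gene was higher and 2 were lower, 2 ABC transporters were higher (Abcc8 at 1.70 and Abcb1a at 1.41), and Aqp1 was lower (-2.46). Slco3a1, an organic anion transporter and the 1 gene of its list on the array, was lower there (-1.82). Between mTEC and cTEC, where 11.1% of all probe sets were higher and 4.25% lower, 2 of 14 pumps were higher and 1 lower, 6 of 20 ABC transporters higher and 1 lower, and 1 of 4 aquaporins higher. Between epithelium and myeloid cells pumps had 5 higher and 2 lower of 14, and ABC transporters had 4 higher and 5 lower of 20, against 15.8% and 8.64% of all probe sets. Between tDC and tMPh, 7 of 20 ABC transporters were higher in tMPh, against 5.62% of all probe sets, led by Abcc3 (-5.69) and the phospholipid exporter Abcb4 (-4.95). The peptide transporter of antigen presentation Tap1 was higher in tDC (1.70).

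Among the 29 members with more than 1 probe set, Slc39a4, the zinc importer of the intestine, had sets that read differently. Its probe set of highest mean signal differed by -0.05 between wild-type CD80hi and CD80lo mTEC (adjusted p = 0.970). Its other probe set read 312.3 and 275.0 in wild-type CD80hi against 26.1 and 35.2 in CD80lo, a log2 difference of 3.08 ± 0.38 (adjusted p = 0.000116). The same set read 215.9 and 272.4 in mTEC against 11.1 and 13.9 in cTEC, a difference of 3.84 ± 0.38. In both comparisons the groups did not overlap, as for 62.9% and 54.3% of all probe sets tested. The dimmer sets of Slc23a3 and Slc11a2 were also called between wild-type stages, at 1.36 and -1.08, where the brighter sets were not.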

How the data were processed

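Total RNA of 16 samples was measured on Affymetrix arrays, 1 array a sample. The deposited value table holds the authors' intensity per probe set on a linear scale, with every array's 2% trimmed mean at about 100.1, so the authors had scaled them. The software is not given in the sources used here. Array number, with 2 arrays a group, limits the precision. Of 12488 probe sets, 66 controls and 3103 that were not above 17.3 on at least 2 arrays were left out, and 9319 were tested. The constant added before log2 was 4.8, the 20th percentile of all values. All 16 arrays entered 1 limma model (version 3.58.1, R 4.3.3) with a mean per group, and p-values were Benjamini-Hochberg adjusted. The fit was tested on simulated data. Figures used matplotlib.

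All called members were named up to 24 in a comparison, and otherwise the 12 highest and 12 lowest, with Slc12a3 and the brightest of each class, the 5 probe sets most like Slc12a3 and up to 2 genes of each other list. Slc39a4, Slc23a3, Slc11a2, Slc6a2 and Slc2a5 were named after their values were seen. The brightest probe sets of 8 members carry a letter before the _at ending of their name. Among them are the _r sets of Slc39a4 and Slc23a3, whose dimmer sets carry no such letter. Members and lists were chosen with earlier results of these data known. Alternatives were another normalization, constant, filter, set of groups, rule for probe sets, replicate block and leaving out arrays.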

Additional observations from a re-analysis of the deposited data

Results flagged for a closer look

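The probe set of Slc39a4 that is not its brightest had a stage difference that differed between genotypes by the interaction test, with an estimate of -2.42 ± 0.54 (SE; limma, Benjamini-Hochberg adjusted p = 0.0447). It read 312.3 and 275.0 in wild-type CD80hi, 26.1 and 35.2 in wild-type CD80lo, 183.9 and 102.8 in labelled knockout CD80hi, and 118.9 and 61.1 in labelled knockout CD80lo mTEC. The wild-type stages did not overlap, while the labelled knockout stages did. Of all probe sets tested, 62.9% did not overlap between wild-type stages and 46.1% between labelled knockout stages. The gene's brightest probe set had an estimate of -0.31 and was not called.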

How the results depend on the processing

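No member called in a comparison reversed its sign there under any alternative run. Slc39a4, not called between wild-type stages at -0.05 on its brightest set, was called at 1.52 (adjusted p = 0.0134 by limma) with the mean over its probe sets. Fitting only the groups compared, with fewer arrays behind the spread, gave 37 called members instead of 18 between wild-type CD80 stages, 7 instead of 16 between labelled knockout stages and 4 instead of 22 between tDC and tMPh. A larger constant gave 5 instead of 3 between genotypes in CD80hi mTEC and 2 instead of 0 for the interaction, which was 1 with the mean over probe sets (Slc6a13, which has 1 probe set, so that its estimate stayed at -1.86 and only the refit moved its p). Without array 1 of both knockout groups, 6 instead of 16 members were called between their stages. Leaving out each array in turn gave 8 to 12 between wild-type stages, 1 to 3 between genotypes in CD80hi (1 without either wild-type array), 0 in CD80lo, 7 to 11 between labelled knockout stages, 13 to 16 between mTEC and cTEC, 20 to 29 between epithelium and myeloid cells, 17 to 23 between tDC and tMPh and 0 for the interaction. Where a cause is not named, the cause was not tested. Quantile normalization moved the median log2 difference by 0.11 between genotypes in CD80hi, by -0.13 between epithelium and myeloid cells and by 0.11 between tDC and tMPh. Without the filter, 3 untested members were called: Slc32a1, Slc22a4 and Slc9b2.

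Replicate numbers were checked for pairing: same-numbered arrays deviated together with r of 0.279 to 0.526 over the 6 pairs of unfractionated groups, and with 0.517 between the labelled knockout stages but 0.170 between the wild-type stages. The labels do not say that a number marks a shared batch. With the replicate block over all arrays, 25, 24 and 35 members were called between wild-type stages, labelled knockout stages, and mTEC and cTEC, and 1 (Slc6a13, -1.86, adjusted p = 0.0419 by limma) for the interaction. In a block fit of the unfractionated arrays, chosen after seeing the data, mTEC and cTEC differed in 31 members, 23 of them among the 24, without Slc2a1.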
